A study of Mus musculus with 13 samples.

Results

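RNA levels in 4T1 tumors after 7 cycles of cyclophosphamide (CPA) were compared with those after 2 cycles, gene by gene, in the group values deposited for each. The 2 groups hold 5 of the study's 13 RNA-seq libraries: 3 pools of tumor RNA after 2 cycles and 2 pools after 7 cycles. The table has 24170 named genes, and 11809 of them reached 1 FPKM (fragments per kilobase of transcript, scaled to the mapped reads) in at least one of these groups. 4T1 is a transplantable mouse mammary carcinoma line. Here it was grown in the mammary fat pad of immune-competent female BALB/c mice, the strain in which it arose, so that the tumors hold host cells beside the carcinoma cells.

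Per the labels all CPA groups received 130 mg/kg by intraperitoneal injection every 6 days (the study's own listings do not all give the same dose), a metronomic schedule in which a moderate dose is repeated at short intervals. Mice were 10 to 11 weeks old in the 2 cycle group and 14 to 15 weeks old in the 7 cycle group. The number of cycles, the age of the mouse, the age of the tumor and the number of pools therefore differed together and cannot be told apart. The 3 further groups are given beside the comparison as reference levels and were not used to call a gene. They are PBS vehicle (3 pools, 10 to 11 weeks), 4 cycles (3 pools, 12 to 13 weeks) and regrowth, which means 4 cycles followed by 18 days without drug (2 pools, 14 to 15 weeks). Every library is a pool, so no value belongs to one animal.

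CPA is a prodrug that liver cytochromes P450 convert to a DNA-alkylating mustard. Damaged tumor cells can release nucleic acids that are sensed in the cytosol and turn on type I interferons, which act through JAK kinases to switch on interferon-stimulated genes. Interferon gamma comes mainly from natural killer (NK) and T cells and acts on an overlapping set of genes. NK cells and cytotoxic T cells kill through granules that hold perforin, which forms pores, and granzymes, which are serine proteases. Carcinomas also contain fibroblasts that lay down a collagen-rich matrix, blood vessels and myeloid cells, and 4T1 tumors are known for the large number of granulocytes they draw in.

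Only 1 FPKM value per gene and group was analysed, so no value below has an SD or n, and no test between the groups was possible. A gene was called higher or lower by size alone: at least 2-fold on the scale log2((FPKM after 7 cycles + 0.1)/(FPKM after 2 cycles + 0.1)), with at least 1 FPKM in the higher of the groups. Adding 0.1 FPKM understates the difference of low genes. A positive log2 difference means a higher level after 7 cycles. In these bulk samples, fewer cells of a type and less RNA per cell cannot be told apart.

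Most genes stood close to each other in the 2 groups. Of the 11809 genes, 11115 (94.1%) were within 2-fold, 305 were called higher after 7 cycles (2.58%) and 389 were called lower (3.29%). The median log2 difference was -0.05, with 90% of the genes lying between -0.84 and 0.71. The difference was negative in 54.9% of the genes. With so few calls over all genes, a short list with 0 calls does not by itself show an unchanged program. Among large differences more were upward, with 111 genes at least 4-fold higher and 34 at least 4-fold lower. The 111 include all 17 genes of the skeletal muscle list described below, and muscle genes outside that list. At the 2-fold limit the log2 differences were 1.00 for Prok2 and Hpn just inside and 0.997 for Gm5483 and Sdsl just outside. The lower limit ran between Cma1 (-1.001, called) and Wdfy4 (-0.9999, not called).

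**Figure D1:**
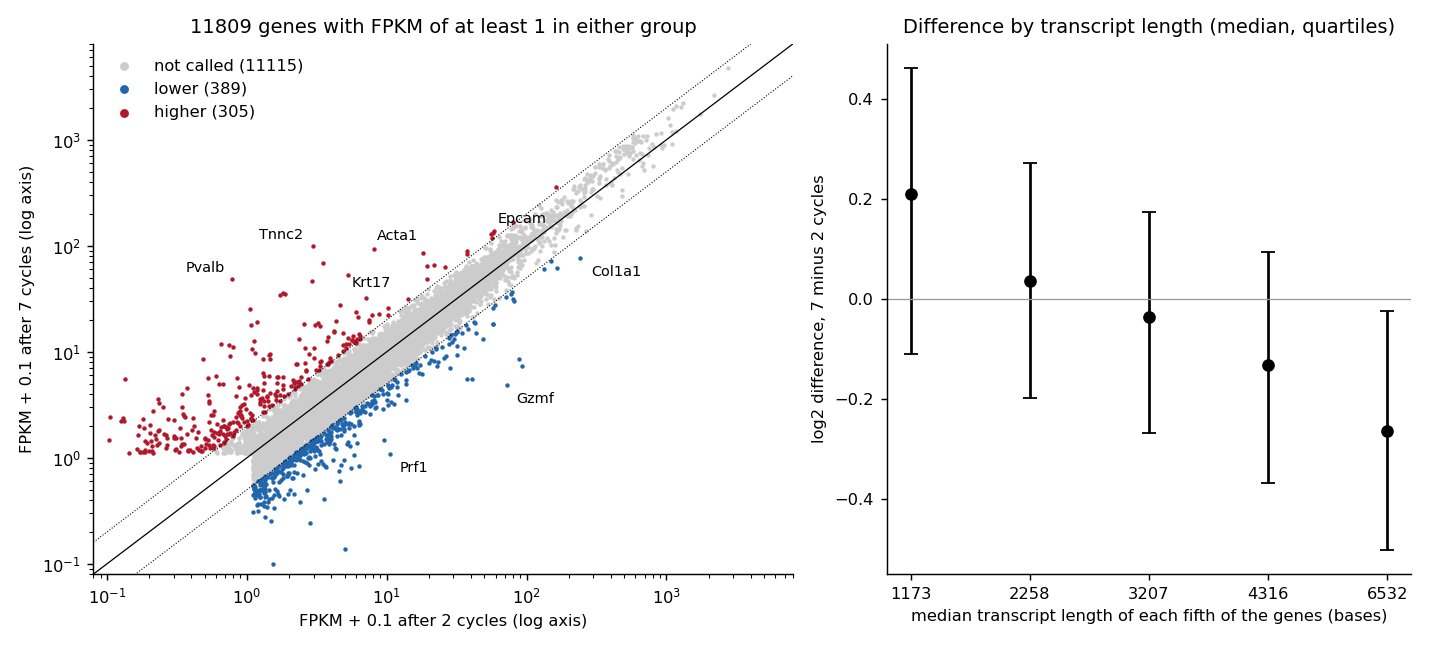
Left, FPKM + 0.1 after 7 cycles against that after 2 cycles for 11809 genes on log axes, with the line of equality (solid) and the 2-fold limits (dotted). Right, the median log2 difference (points) and its quartiles (bars) in 5 equal groups of genes ordered by the length of their longest annotated transcript. Muscle genes such as Tnnc2 lie far above the line and granzyme genes such as Gzmf far below it, and the median passes from 0.21 in the shortest genes to -0.26 in the longest.

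The difference moved with the length of the transcript. With the genes ordered by length and cut into 5 groups of equal size, the median log2 difference was 0.21 in the group with the shortest transcripts (median 1173 bases) and 0.03, -0.04, -0.13 and -0.26 in the groups that followed. The longest group had a median length of 6532 bases, with 29 genes called higher and 105 lower, and the shortest group had 113 higher and 117 lower, the most of either direction. RNA quality is not given for these libraries, and what set this trend was not tested. Each gene was therefore also set against genes of like length, by subtracting the median of its bin among 20 bins of length. This gave 292 genes higher and 336 lower, of which 265 and 284 were also called without it. The FPKM summed over all genes were 226420 after 2 cycles and 258724 after 7 cycles. Scaling both to one sum shifted the log2 differences by -0.19, brought their median to -0.24 and gave 256 genes higher and 714 lower, so the share of calls that were upward went from 43.9% to 26.4%.

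The genes of killing granules made up the clearest downward group. Of 16 genes in a list for NK and cytotoxic cells, 12 reached 1 FPKM, and 7 were called lower and 0 higher. Of the 12, 4 were below 1 FPKM after 7 cycles, so that passing the minimum already favoured a lower level there. These were Prf1 and Gzma, which were called, and Klrk1 and Klrc1, which were not. The list's median log2 difference was -1.99, against -0.05 over all genes. Prf1, which encodes perforin (chr10:60760583-60767011, mm9), had 1.53 FPKM in vehicle tumors, 10.5 after 2 cycles, 4.97 after 4, 0.990 after 7 and 0.796 in regrowth. Its 7 cycle level was thus 9.70-fold below that after 2 cycles and also below vehicle.

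Granzyme genes were also highest after 2 cycles. Gzmb, the granzyme best known for triggering apoptosis, had 1.83 FPKM in vehicle tumors, 9.48 after 2 cycles, 5.44 after 4, 1.36 after 7 and 1.45 in regrowth. Gzmf had the largest downward difference among named genes that reached 5 FPKM, at 7.53, 72.8, 49.8, 4.81 and 4.19 FPKM in the same order, which is 14.9-fold lower after 7 than after 2 cycles. Gzmg went from 92.9 FPKM after 2 cycles to 7.23 after 7, and Gzmd from 88.2 to 8.41. For each of these the 2 cycle level was the highest of the 5 groups, the 4 cycle level lay between, and the 7 cycle level was below vehicle. Gzma, a granzyme with a different cleavage preference, differed less, with 1.98 FPKM after 2 cycles and 0.757 after 7 (log2 difference -1.28).

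All 7 granzyme genes that reached 1 FPKM were called lower. Gzmb to Gzmg stand side by side with the mast cell protease genes in one cluster, which the table places at chr14:56560287-56881097 (mm9). Of 17 genes listed in that span, 12 reached 1 FPKM. Among these, Cma1, Mcpt1, Mcpt2 and Mcpt4 were below it after 7 cycles, which already favoured a lower call. Of the 12, 10 were called lower and 0 higher. The exceptions were Mcpt8 (2.29 FPKM after 2 cycles, 1.65 after 7) and Ctsg, which encodes cathepsin G of granulocytes and was higher (2.94 and 4.66 FPKM, log2 difference 0.65). Granzymes C to G are near copies of each other, so reads may have been shared among them and the split between single genes is uncertain.

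How alike these genes are shows in the sequence before their starts, taken from RefSeq on GRCm38.p6. The 250 bases before the annotated start are printed 5′ to 3′ for the pair of cytotoxic list members that differed most, Gzmf (chr14:56211408-56211657, minus strand) and Gzmd (chr14:56132594-56132843, minus strand). A local alignment of the pair matched 202 of 229 positions, or 88.2%, gaps counted as positions. The pair was chosen after its values were seen, and no motif is marked.
Gzmf: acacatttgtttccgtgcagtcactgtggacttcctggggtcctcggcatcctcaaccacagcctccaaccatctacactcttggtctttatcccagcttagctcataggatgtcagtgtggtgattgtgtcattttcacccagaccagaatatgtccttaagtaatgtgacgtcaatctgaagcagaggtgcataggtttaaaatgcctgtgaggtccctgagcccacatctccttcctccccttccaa
Gzmd: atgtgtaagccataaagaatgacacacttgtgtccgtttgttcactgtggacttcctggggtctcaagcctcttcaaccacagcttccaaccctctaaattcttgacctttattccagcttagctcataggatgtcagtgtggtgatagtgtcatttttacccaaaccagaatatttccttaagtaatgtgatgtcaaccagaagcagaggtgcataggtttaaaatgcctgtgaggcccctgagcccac

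Other genes of these cells in the list were not called. Klrk1, the activating receptor NKG2D, had 1.37 FPKM after 2 cycles and 0.723 after 7, and was not called. Ccl5, a chemokine made by activated T and NK cells, stood at 4.92 FPKM in vehicle tumors, 35.3 after 2 cycles, 24.1 after 7 and 8.80 in regrowth. Nkg7, a granule membrane protein, was at 5.08 FPKM after 2 cycles and 4.24 after 7, against 1.65 in vehicle. The 7 cycle levels of Ccl5 and Nkg7 were still more than 2-fold above vehicle, whereas those of Prf1 and Gzmb were not. Ncr1, the NK receptor NKp46, stayed below the FPKM minimum throughout (0.581 after 2 cycles, 0.0670 after 7).

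**Figure D2:**
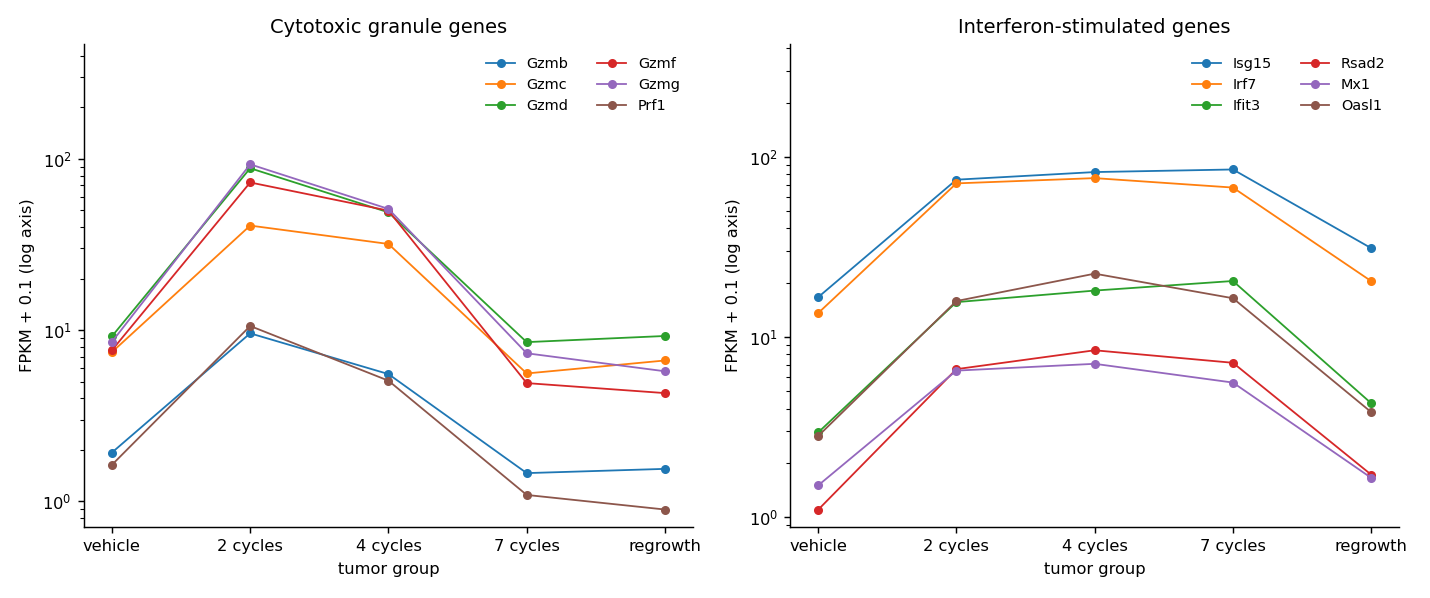
FPKM + 0.1 on a log axis in the 5 tumor groups, for 6 cytotoxic granule genes (left) and 6 interferon-stimulated genes (right); each point is 1 group value and lines join the values of a gene. Granule genes peak after 2 cycles and are at or below vehicle after 7 (Prf1 10.5 and 0.990 FPKM), whereas interferon-stimulated genes are about level from 2 to 7 cycles (Isg15 74.5 and 84.9 FPKM).

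T cell markers were lower as well, at low levels. Of 14 genes in the T cell list 9 reached 1 FPKM, 3 were called lower and the median log2 difference was -0.78. The called genes, Cd4, Cd2 and Cd3e, were below 1 FPKM after 7 cycles, so that passing the minimum already favoured a lower call. Cd4, the co-receptor of helper and regulatory T cells, had 0.608 FPKM in vehicle tumors, 1.22 after 2 cycles, 0.558 after 4, 0.253 after 7 and 0.619 in regrowth. Cd3e, a chain of the T cell receptor complex, went from 1.86 FPKM after 2 cycles to 0.743 after 7. Cd8a, which marks cytotoxic T cells, was at 2.32 and 1.28 FPKM and was not called, and its 7 cycle level was above the 0.724 FPKM of vehicle tumors. Tcf7, a factor of naive and memory T cells, stood against the rest of the list at 3.06 and 3.33 FPKM.

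In a list of regulatory T cell and checkpoint genes, 6 of 10 reached 1 FPKM and 3 checkpoint genes were called lower. The regulatory T cell members Foxp3, Il2ra, Ctla4 and Icos were below the minimum. Pdcd1lg2, which encodes the PD-1 ligand PD-L2, had 0.478 FPKM in vehicle tumors, 2.08 after 2 cycles, 0.857 after 4, 0.357 after 7 and 0.185 in regrowth. It reached 1 FPKM only after 2 cycles, so that passing the minimum already favoured a lower call. Havcr2, the receptor TIM-3, went from 4.79 to 1.90 FPKM and Tigit from 8.28 to 2.93 FPKM. Cd274, which encodes PD-L1, had 10.6 FPKM after 2 cycles and 5.64 after 7 (log2 difference -0.89), and was not called. Foxp3, the defining factor of regulatory T cells, was listed at 0 after 7 cycles.

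Of 14 genes for mast cells, basophils and eosinophils 8 reached 1 FPKM, and 7 of these were called lower. All 7 were below 1 FPKM after 7 cycles, so that their passing the minimum already favoured a lower call. Mcpt8, which passed in both groups, was not called. Tpsab1, a tryptase stored in mast cell granules, had 1.27 FPKM in vehicle tumors, 5.76 after 2 cycles, 1.74 after 4, 0.969 after 7 and 1.67 in regrowth. Cpa3, the mast cell carboxypeptidase, had 0.323, 1.16, 0.501, 0.266 and 0.476 FPKM in the same order. Both were within 2-fold of vehicle by 4 cycles, when Gzmb was still above that. Mcpt2 went from 5.48 to 0.709 FPKM between 2 and 7 cycles, but had 3.37 FPKM in regrowth, where the granzymes were low.

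B cell markers were mostly below the minimum. Only 2 of 10 list members reached 1 FPKM, namely Cd22, a B cell receptor of the lectin type (1.10 FPKM after 2 cycles, 0.386 after 7, called lower), and Xbp1, a factor that many secretory cells use (36.6 and 47.9 FPKM). Dendritic cell genes had 1 call of 4, which was Ccr7, the receptor that guides cells to lymph nodes (2.05 and 0.904 FPKM). Cd22 and Ccr7 reached 1 FPKM after 2 cycles but not after 7, so that passing the minimum already favoured a lower call.

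Macrophage genes leaned down by less than 2-fold. Of 20 genes, all of which reached 1 FPKM, 18 were lower after 7 cycles, 1 was called and the median was -0.50. The called gene was Ly6c2, a marker of inflammatory monocytes, at 1.30 FPKM in vehicle tumors, 14.2 after 2 cycles, 10.2 after 4, 6.65 after 7 and 2.57 in regrowth. Itgam, an integrin of myeloid cells, went from 16.7 to 8.36 FPKM, and Csf1r, the receptor that macrophages depend on, from 28.3 to 14.6, both just short of 2-fold. Cd68, a lysosomal marker, was at 31.0 FPKM after 2 cycles, 31.4 after 4 and 16.9 after 7. Gpnmb, a lysosomal gene of lipid-laden macrophages, was the largest exception and was higher (5.27 and 8.32 FPKM). Complement genes included 2 called lower of 10, C2 (4.84 and 1.79 FPKM) and the inhibitor Serping1 (37.0 and 17.9 FPKM).

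Interferon-stimulated genes held their level from 2 to 7 cycles. Of 40 such genes, all above the minimum, 0 were called in either direction, against 2.58% of all genes called higher and 3.29% called lower. With shares so low, 0 calls do not by themselves show an unchanged program. In the list 19 genes were higher, 21 were lower and the median log2 difference was -0.01. Isg15, a ubiquitin-like protein, had 16.5 FPKM in vehicle tumors, 74.5 after 2 cycles, 82.1 after 4, 84.9 after 7 and 31.0 in regrowth. Irf7, the factor that amplifies type I interferon, had 13.4, 71.1, 76.0, 67.3 and 20.3 FPKM. Rsad2, the antiviral enzyme viperin, stood at 6.52 FPKM after 2 cycles and 7.08 after 7, and Mx1, an antiviral GTPase, at 6.40 and 5.48. Oasl1, a sensor-like antiviral protein, had 15.7 and 16.3 FPKM. In all of these the CPA groups were well above vehicle and regrowth and close to each other.

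The list's median log2 difference over vehicle was 1.42 after 2 cycles, 1.55 after 4, 1.38 after 7 and 0.38 in regrowth. With equal FPKM sums the median difference between 7 and 2 cycles was -0.20, against -0.24 for all genes, and it was 0.04 among genes of like length, where 1 of the 40, Cxcl10, was lower by at least 2-fold. The sign of so small a median thus depends on the scaling. The largest downward value in the list was that of Cxcl10, a chemokine that draws T and NK cells, at 22.8 FPKM after 2 cycles and 11.6 after 7 (log2 difference -0.97). Usp18, which restrains interferon signaling, had the largest upward value (16.4 and 24.7 FPKM).

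Genes listed as responsive to interferon gamma were lower, a list that overlaps with the response to type I interferon. Of 20 genes 19 reached 1 FPKM, all 19 were lower after 7 than after 2 cycles, 3 were called and the median was -0.70. Cxcl9, a chemokine for T cells (chr5:92750356-92757105, mm9), had 4.34 FPKM in vehicle tumors, 17.1 after 2 cycles, 10.5 after 4, 7.43 after 7 and 3.56 in regrowth. Ido1, an enzyme that degrades tryptophan, had 0.221, 1.40, 1.17, 0.539 and 0.256 FPKM, and Socs1, an inhibitor of JAK kinases, had 5.36, 15.4, 9.97, 6.94 and 4.73 FPKM. Of the called genes, Ido1 passed the minimum through its 2 cycle level and not its 7 cycle level, which already favoured a lower call. The guanylate-binding protein genes Gbp4 (33.2 and 16.8 FPKM) and Gbp5 (10.7 and 5.31 FPKM) came just short of a call. Igtp, a GTPase that acts on the vacuoles of parasites, was at 59.1 and 48.0 FPKM.

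Cxcl11 and Irf1, which like other members also answer to type I interferon, were near level at 9.56 and 8.39 FPKM and at 57.6 and 47.7 FPKM. How far each kind of interferon set the levels in this list was not tested. Among genes of like length, the list's median was -0.57 and 3 members were lower by at least 2-fold. Ifng itself was below the minimum in every group, with 0.142 FPKM in vehicle tumors, 0.617 after 2 cycles, 0.473 after 4, 0.171 after 7 and 0.109 in regrowth. The 3 type I interferon ligands listed, Ifna2, Ifna4 and Ifnb1, were below the minimum too, and the interferon receptor and kinase genes had 0 calls of 7. Of 12 nucleic acid sensor genes 1 was called, Tlr9, an endosomal sensor of DNA found in B and dendritic cells (1.28 and 0.338 FPKM). Tlr9 too was below the minimum after 7 cycles, so that passing it already favoured a lower call.

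The promoters of these genes were searched for 2 motifs on both strands, from 250 bases before to 50 bases after the start. GAAA, any 2 bases and GAAA form the core of the interferon-stimulated response element (ISRE), to which IRF factors bind. The motif TTCNNNGAA is the gamma activated sequence (GAS), found before many genes that answer to interferon gamma. Matches of either motif may overlap with each other. The ISRE core was in 15 of 28 interferon-stimulated promoters with an entry (53.6%) and in 10 of 14 of the interferon gamma list (71.4%), against 3.49% of the first promoters of 27025 genes. The GAS motif was in 6 of 28 (21.4%) and 8 of 14 (57.1%), against 8.47%. The lists were drawn up from known interferon genes, so these shares describe the lists and are not a result of the treatment.

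Promoters of 4 genes are printed to set called against level genes, again as the 250 bases before the start from RefSeq GRCm38.p6, with ISRE and GAS matches in capitals. Socs1 (chr16:10785537-10785786, minus strand) and Cxcl9 (chr5:92328080-92328329, minus strand) were called lower. Isg15 (chr4:156200819-156201068, minus strand) and Bst2 (chr8:71537473-71537722, minus strand), which encodes the virus-tethering protein tetherin, were level. Cxcl9 had no match to these letters in this window. The capitals in Socs1 are 2 overlapping ISRE matches, those in Isg15 are 3, and those in Bst2 are 1 GAS and 2 ISRE matches that overlap.
Socs1: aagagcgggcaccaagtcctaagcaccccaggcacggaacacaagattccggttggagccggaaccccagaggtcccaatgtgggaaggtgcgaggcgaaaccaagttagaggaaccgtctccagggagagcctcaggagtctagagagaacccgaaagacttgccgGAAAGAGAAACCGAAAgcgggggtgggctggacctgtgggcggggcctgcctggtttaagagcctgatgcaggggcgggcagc
Cxcl9: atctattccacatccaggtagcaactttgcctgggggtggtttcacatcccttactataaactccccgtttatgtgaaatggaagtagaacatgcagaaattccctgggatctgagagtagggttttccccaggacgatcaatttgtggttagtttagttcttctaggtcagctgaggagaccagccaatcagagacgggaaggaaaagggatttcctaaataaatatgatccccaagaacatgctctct
Isg15: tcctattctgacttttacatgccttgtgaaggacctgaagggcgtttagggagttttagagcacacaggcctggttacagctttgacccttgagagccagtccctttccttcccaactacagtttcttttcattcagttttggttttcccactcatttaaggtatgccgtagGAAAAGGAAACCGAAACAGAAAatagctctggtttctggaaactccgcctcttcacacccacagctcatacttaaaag
Bst2: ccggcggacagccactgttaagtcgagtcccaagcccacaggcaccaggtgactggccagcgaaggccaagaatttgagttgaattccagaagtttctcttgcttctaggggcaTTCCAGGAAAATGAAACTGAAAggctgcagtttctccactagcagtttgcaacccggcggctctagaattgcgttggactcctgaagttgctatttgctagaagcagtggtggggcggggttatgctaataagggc

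Of 17 genes for MHC class I presentation and 7 for class II, 0 were called, against 2.58% of all genes called higher and 3.29% lower. B2m, the light chain of class I molecules, had 557 FPKM in vehicle tumors, 817 after 2 cycles, 873 after 4, 845 after 7 and 758 in regrowth. Cd74, the class II invariant chain, had 294, 463, 479, 478 and 347 FPKM. Within class I, the transporter Tap1 was lower (50.1 and 39.5 FPKM) and the immunoproteasome subunit Psmb8 was higher (193 and 263 FPKM). H2-K1, a class I heavy chain with close relatives, had the largest difference, at 12.98 and 24.7 FPKM. Ciita, the switch of class II genes and a member of the interferon gamma list, went from 4.43 to 2.18 FPKM, just short of a call, and Ctss, the protease that trims the invariant chain, from 227 to 141 FPKM.

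**Figure D3:**
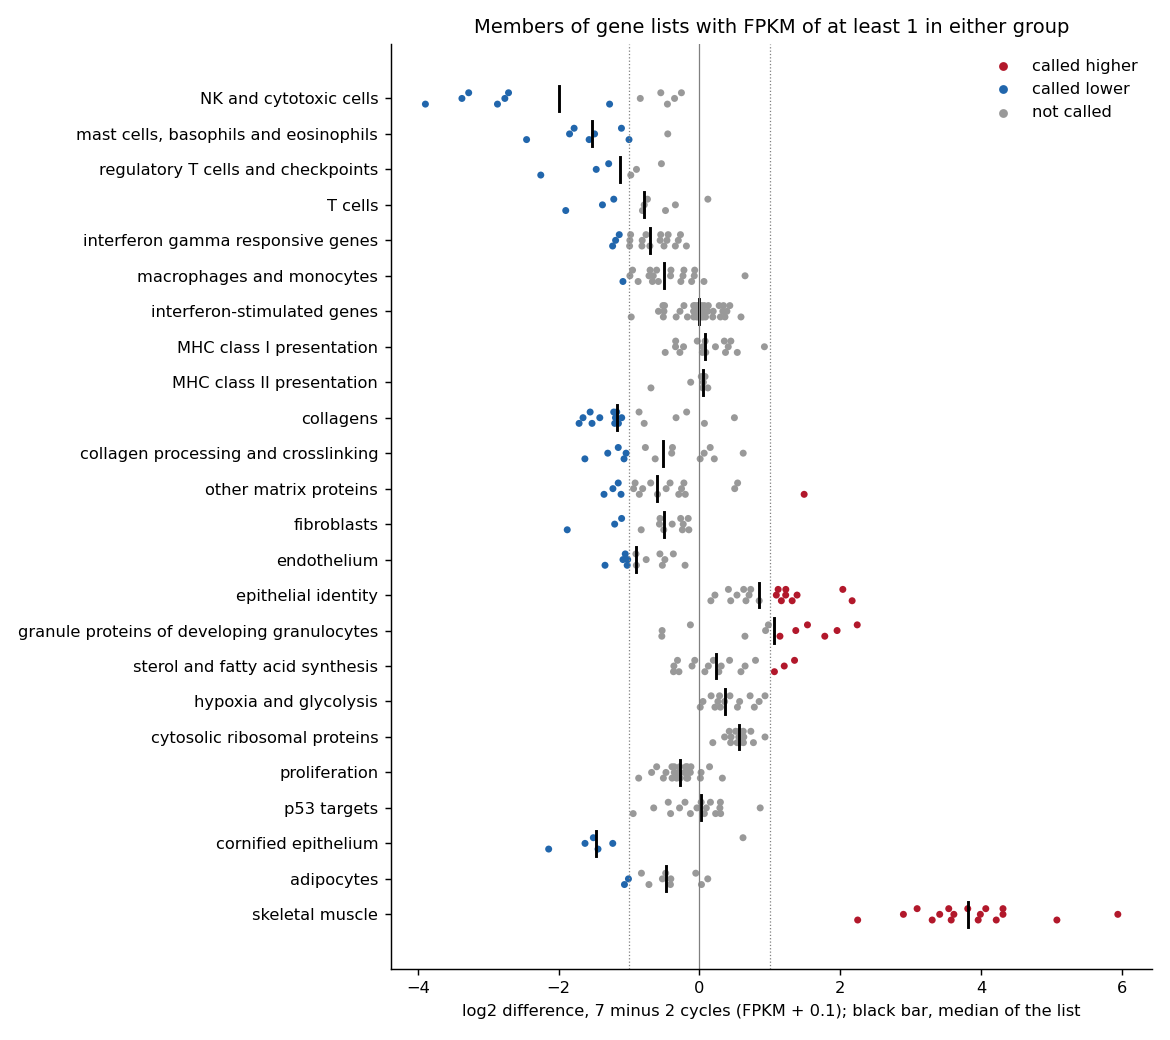
Log2 difference of 7 minus 2 cycles (horizontal axis) for the members of 24 gene lists with at least 1 FPKM in either group; each point is a gene, colored by its call, black bars are list medians and dotted lines mark 2-fold. Cytotoxic genes (median -1.99), mast cell genes and collagens (-1.18) lie to the left, interferon-stimulated genes (-0.01) at 0, and epithelial (0.85), granule protein (1.06) and skeletal muscle genes (3.81) to the right.

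Genes for the granule proteins of developing granulocytes were higher, 6 of them by at least 2-fold. Of 15 genes 12 reached 1 FPKM, 6 were called higher and 0 lower, and the median was 1.06. Elane, neutrophil elastase (chr10:79349056-79350961, mm9), had 0.0870 FPKM in vehicle tumors, 1.08 after 2 cycles, 2.92 after 4, 4.47 after 7 and 0.194 in regrowth. Mpo, myeloperoxidase, had 0.0837, 1.18, 2.50, 3.60 and 0.0515 FPKM, and Camp, a cathelicidin, had 0.306, 8.68, 12.1, 22.5 and 0.438 FPKM. Elane, Mpo and Camp did not reach 1 FPKM without drug, stepped up with each CPA group and fell short of it again in regrowth. Lcn2, an iron-binding granule protein that epithelial cells also make, was high throughout (133, 162, 231, 358 and 251 FPKM). Mmp9 (25.8 and 17.8 FPKM) and Mmp8 (2.45 and 1.66 FPKM), proteases of later granules, leaned lower and were not called.

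In a list of 18 genes of mature neutrophils and their recruitment, 2 were called higher and 1 lower, all of them chemokine ligands. S100a8, a subunit of calprotectin, had 21.4 FPKM in vehicle tumors, 114 after 2 cycles, 127 after 4, 199.7 after 7 and 22.97 in regrowth, and S100a9 had 126 and 189 FPKM after 2 and 7 cycles. Csf3r, the receptor for the growth factor G-CSF, was lower (6.03 and 3.62 FPKM) and Cxcr2, the receptor for neutrophil chemokines, was at 2.00 and 1.49 FPKM. Among its ligands, Cxcl5 (1.21 and 4.22 FPKM) and Cxcl1 (5.55 and 12.9 FPKM) were called higher and Cxcl3 (5.88 and 2.67 FPKM) was called lower. Hemoglobin genes, a measure of red cells in the tumor, were higher by less than 2-fold, with Hbb-b1 at 24.1 FPKM in vehicle, 69.2 after 2 cycles and 109 after 7.

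Collagens of the main fibrils and sheets were lower after 7 cycles. Of 18 genes in the list 17 reached 1 FPKM, 11 were called lower and 0 higher, and the median was -1.18. Over all collagen genes by symbol, 27 reached 1 FPKM, 12 were called lower and 3 higher, and the median was -0.86. Col1a1 (chr11:94797583-94813170, mm9), a chain of the main fibrillar collagen, had 380.2 FPKM in vehicle tumors, 241 after 2 cycles, 155 after 4, 76.5 after 7 and 125 in regrowth. Col1a2, its partner chain, had 271, 165, 114, 62.0 and 109 FPKM. For both, each further step of treatment had a lower level, and regrowth lay between 4 and 7 cycles. Col6a3, of the microfibrillar type VI, had the largest difference (9.32 and 2.78 FPKM, log2 difference -1.71).

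Basement membrane chains Col4a1 (59.8 and 27.7 FPKM) and Col4a2 (42.6 and 18.5 FPKM) were also called. Col3a1 went from 158 to 87.1 FPKM and was not called. Col14a1 (2.49 and 3.55 FPKM) and Col8a1 (15.3 and 16.02 FPKM) stood against the rest. The 3 collagen genes called higher were outside the list and below 1 FPKM after 2 cycles, Col17a1, of epithelial attachment sites (0.570 and 2.15 FPKM), Col28a1 (0.433 and 2.09 FPKM) and Col9a1, of cartilage (0.130 and 1.22 FPKM). Collagen transcripts are long, with a median of 5930 bases in the list. Among genes of like length the list's median was -0.98 and 7 of 17 were lower by at least 2-fold. The members that then missed the limit were Col4a1, Col4a2, Col5a1 and Col15a1.

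Enzymes that crosslink and process collagen were lower in part. Of 14 genes 5 were called lower, among them Adamts2, which trims procollagen (6.31 and 1.98 FPKM), and the lysyl oxidase relative Loxl2 (8.21 and 3.27 FPKM). Lox itself was level (6.57 and 6.61 FPKM), and P4ha2, a proline hydroxylase, was higher by less than 2-fold (10.2 and 15.8 FPKM). Of 19 other matrix genes 4 were called lower and 1 higher. Bgn, the proteoglycan biglycan, had 93.6 FPKM in vehicle tumors, 80.4 after 2 cycles, 55.1 after 4, 31.3 after 7 and 38.9 in regrowth. Fn1, fibronectin, went from 479 to 296 FPKM and was not called. Against the list, Ogn, a small proteoglycan, was called higher (0.662 and 2.04 FPKM) and Dcn, decorin, leaned higher (27.6 and 39.0 FPKM). Ogn was below 1 FPKM after 2 cycles, so that passing the minimum already favoured a higher call.

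Of the 19 other matrix genes above, 16 had a negative difference and 3 a positive one, Dcn and Ogn among the latter. Markers placed in the fibroblast list were lower without exception but mostly by less than 2-fold. All 13 that reached 1 FPKM had a negative difference and 3 were called: Twist2, a factor of mesenchymal cells (3.14 and 0.781 FPKM), Thy1, a surface marker (34.3 and 14.8 FPKM), and Acta2, smooth muscle actin of activated fibroblasts (14.1 and 6.49 FPKM). Twist2 was below 1 FPKM after 7 cycles, so that passing the minimum already favoured a lower call. Pdgfra (10.6 and 8.09 FPKM), Pdgfrb (6.05 and 5.01 FPKM) and Vim (806 and 567 FPKM) were not called. Endothelial genes were likewise all lower, 13 of 13, with 5 called and a median of -0.90. Cdh5, the junction protein of vessels, had 9.70 FPKM in vehicle tumors, 10.1 after 2 cycles, 6.41 after 4, 4.68 after 7 and 8.93 in regrowth. Flt1, a VEGF receptor, went from 3.27 to 1.23 FPKM. Among genes of like length 1 of the 13 endothelial genes was lower by at least 2-fold and the median was -0.71.

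Proteases that remodel matrix and their inhibitors included 4 called lower of 17. Mmp2, gelatinase A, went from 27.7 to 11.6 FPKM and Mmp13, a collagenase, from 22.2 to 10.6, while Mmp14, which activates Mmp2, was at 92.9 and 65.3 FPKM and not called. In the TGF beta list Tgfbi, a matrix protein induced by this factor, was the 1 called gene of 10 (71.6 and 32.8 FPKM). The ligand Tgfb1 stood at 38.3 and 29.2 FPKM. Areg, a ligand of the EGF receptor, was called lower (10.6 and 3.27 FPKM), and 0 of 6 other members of that list were called.

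**Figure D4:**
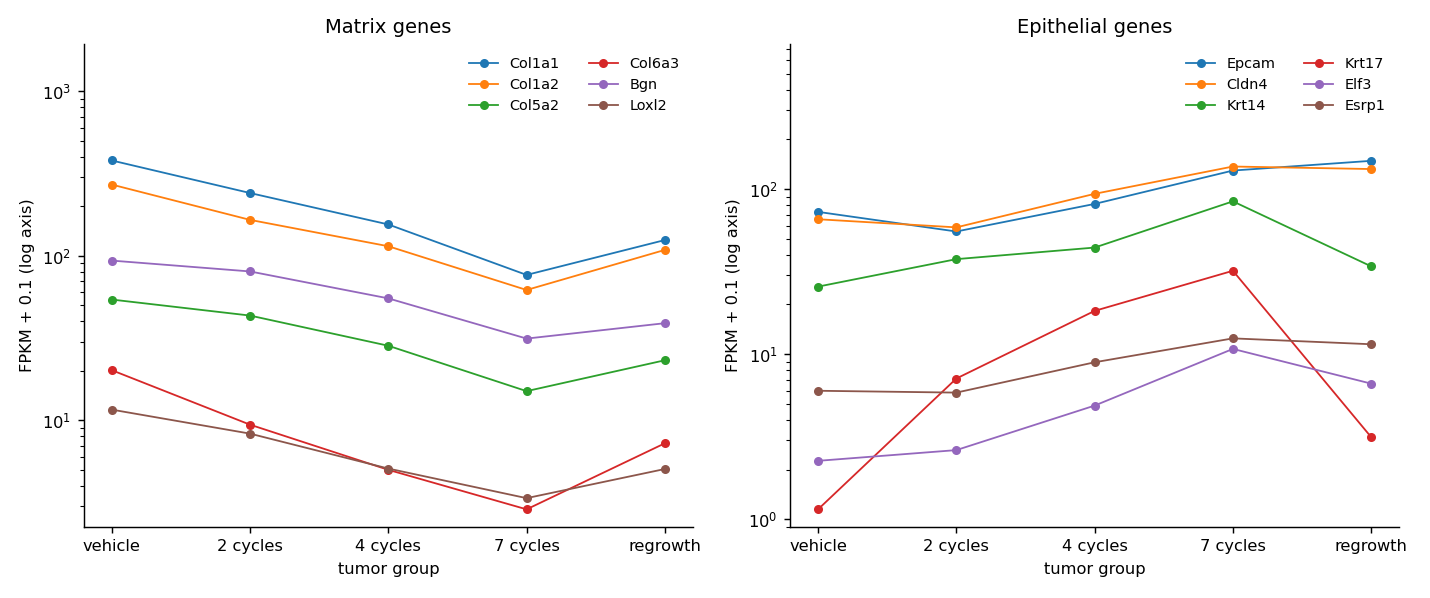
FPKM + 0.1 on a log axis in the 5 tumor groups, for 6 matrix genes (left) and 6 epithelial genes (right); each point is 1 group value and lines join the values of a gene. Matrix genes step down from vehicle to 7 cycles (Col1a1 380.2 to 76.5 FPKM) and are partly back in regrowth, and epithelial genes are highest after 7 cycles or in regrowth (Epcam 129 and 148 FPKM).

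Epithelial genes were higher. Of 23 genes in the list 19 reached 1 FPKM, all 19 had a positive difference, 9 were called higher and the median was 0.85. Epcam, the adhesion molecule that marks carcinoma cells (chr17:88035318-88050467, mm9), had 72.6 FPKM in vehicle tumors, 55.2 after 2 cycles, 81.1 after 4, 129 after 7 and 148 in regrowth. The tight junction genes Cldn4 (58.4 and 137 FPKM) and Cldn7 (10.1 and 21.98 FPKM) were called, as was Esrp1, a splicing factor of epithelial cells (5.74 and 12.4 FPKM). Krt8 (262 and 348 FPKM) and Krt18 (270.4 and 418 FPKM), the simple keratins of the tumor cells, and Cdh1, E-cadherin (20.1 and 23.4 FPKM), were higher by less than 2-fold.

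The list's largest differences included basal genes. Krt17, a basal and stress-linked keratin, had 1.05 FPKM in vehicle tumors, 7.01 after 2 cycles, 18.2 after 4, 31.9 after 7 and 3.04 in regrowth. Elf3, an epithelial transcription factor, had 2.16, 2.52, 4.78, 10.6 and 6.52 FPKM. Trp63, the factor of basal cells, went from 0.580 to 1.59 FPKM and Krt14, a basal keratin, from 37.5 to 84.1. Trp63 was below 1 FPKM after 2 cycles, so that passing the minimum already favoured a higher call. Krt17 and Trp63 were low again in regrowth, where Epcam was at its highest. Among genes of like length the median of the list was 0.84 with 8 of 19 higher. Genes of the mesenchymal state were lower in 6 of 7 and called in 1, the adhesion gene Cdh11 (3.62 and 1.30 FPKM), while Snai1 was at 10.7 and 6.06 FPKM and Twist1 at 12.9 and 9.71.

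Genes of growth and damage programs had few calls, as had all genes tested (2.58% higher, 3.29% lower). Of 25 proliferation genes 0 were called and the median was -0.27. In 21 of the 25 the level was lower after 7 cycles, against 54.9% of all genes. Mki67, a marker of cycling cells, had 13.8 FPKM in vehicle tumors, 14.2 after 2 cycles, 12.2 after 4, 11.3 after 7 and 8.98 in regrowth, and Top2a had 46.2 and 38.2 FPKM after 2 and 7 cycles. Of 17 p53 targets 0 were called. Cdkn1a, the cell cycle inhibitor p21, stood at 9.78 FPKM in vehicle tumors, 24.6 after 2 cycles, 18.5 after 7 and 9.36 in regrowth. Genes that repair crosslinks and alkylated bases had 0 calls of 17, with Mgmt, which removes alkyl groups from guanine, at 1.22 and 1.53 FPKM. Among genes that handle CPA and glutathione 1 of 17 was called, Gsta4, a glutathione transferase (6.31 and 13.0 FPKM), and the drug efflux pump Abcb1b leaned down (7.77 and 3.98 FPKM). Gsta4 was not called among genes of like length (log2 difference 0.69).

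Of 18 sterol and fatty acid synthesis genes 3 were called higher and 0 lower, with 6 negative differences and a median of 0.24. Idi1, an enzyme of the mevalonate pathway, had 9.53 FPKM in vehicle tumors, 2.55 after 2 cycles, 2.87 after 4, 6.66 after 7 and 9.98 in regrowth. Cyp51 had 6.87, 1.98, 2.06, 4.70 and 6.62 FPKM, and Insig1, a sterol-regulated brake, had 11.5, 4.76, 5.24, 10.1 and 12.6 FPKM. All 3 were below vehicle after 2 and 4 cycles and back towards it after 7. Fasn and Acly of fatty acid synthesis were slightly lower (17.9 and 14.6 FPKM, 24.3 and 18.8 FPKM). Hypoxia and glycolysis genes had 0 calls of 15, yet all 15 differences were positive. The largest were those of Ndrg1 (95.8 FPKM in vehicle, 56.0 after 2 cycles, 107 after 7) and Bnip3 (40.6, 22.3 and 40.2 FPKM), both near vehicle after 7 cycles.

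Most ribosomal protein genes were higher by less than 2-fold. Of 78 genes with symbols of this family that reached 1 FPKM 77 had a positive difference, with a median of 0.62. Rpl3l, a muscle paralog, was called higher (0.131 and 1.68 FPKM) and Rps4l lower (2.40 and 1.13 FPKM). Rps14 had 572 FPKM in vehicle tumors, 578 after 2 cycles, 723 after 4, 1103 after 7 and 1161 in regrowth. Their transcripts are short (median 1100 bases), and among genes of like length the median was 0.43 and 75 of 78 were positive. These genes have many pseudogene copies, so the assignment of their reads is uncertain. Of 16 respiratory chain genes 0 were called and the median was 0.21.

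The largest upward differences of all were in skeletal muscle genes. All 17 genes of the list reached 1 FPKM and all 17 were called higher, with a median log2 difference of 3.81. In 9 of them the 2 cycle level was below 1 FPKM, so that passing the minimum already favoured a higher call. Acta1, skeletal actin, had 22.98 FPKM in vehicle tumors, 7.95 after 2 cycles, 1.12 after 4, 93.6 after 7 and 5.70 in regrowth. Tnnc2, fast troponin C, had 8.89, 2.86, 0.469, 99.9 and 5.18 FPKM, and Pvalb, the calcium buffer parvalbumin, had 0.902, 0.687, 0.231, 48.3 and 0.974 FPKM. The 7 cycle value stood far above all other groups, and the 4 cycle value below that of 2 cycles in 17 of 17.

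Among named genes that reached 5 FPKM, the 12 with the largest increase were Pvalb, Myl2, Tnnc2, Tcap, Atp2a1, Ckm, Myl1, Myh4, Pgam2, Casq1, Mybpc2 and Mylpf, all known from muscle, ranging from 15.9-fold for Mylpf to 61.5-fold for Pvalb. Of the 305 genes called higher, 86 were lower after 4 than after 2 cycles, as all 17 genes of the muscle list were, and 219 were not. The latter still held muscle genes outside the list, such as Myl2, at 0.0355 FPKM after 2 cycles, 0.174 after 4 and 5.46 after 7. Myh7, a myosin heavy chain gene, had 0.00513, 0.0141 and 2.32 FPKM in the same order. The 219 are thus not a count free of muscle genes. Since 1 value stands for both 7 cycle pools, whether one pool or both carried this signal could not be seen. Its part in the other differences was not tested. Des, which pericytes and muscle share, followed muscle (3.12 and 18.7 FPKM), while other genes of pericytes and smooth muscle, such as Rgs5 (3.88 and 1.65 FPKM), were lower.

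**Figure D5:**
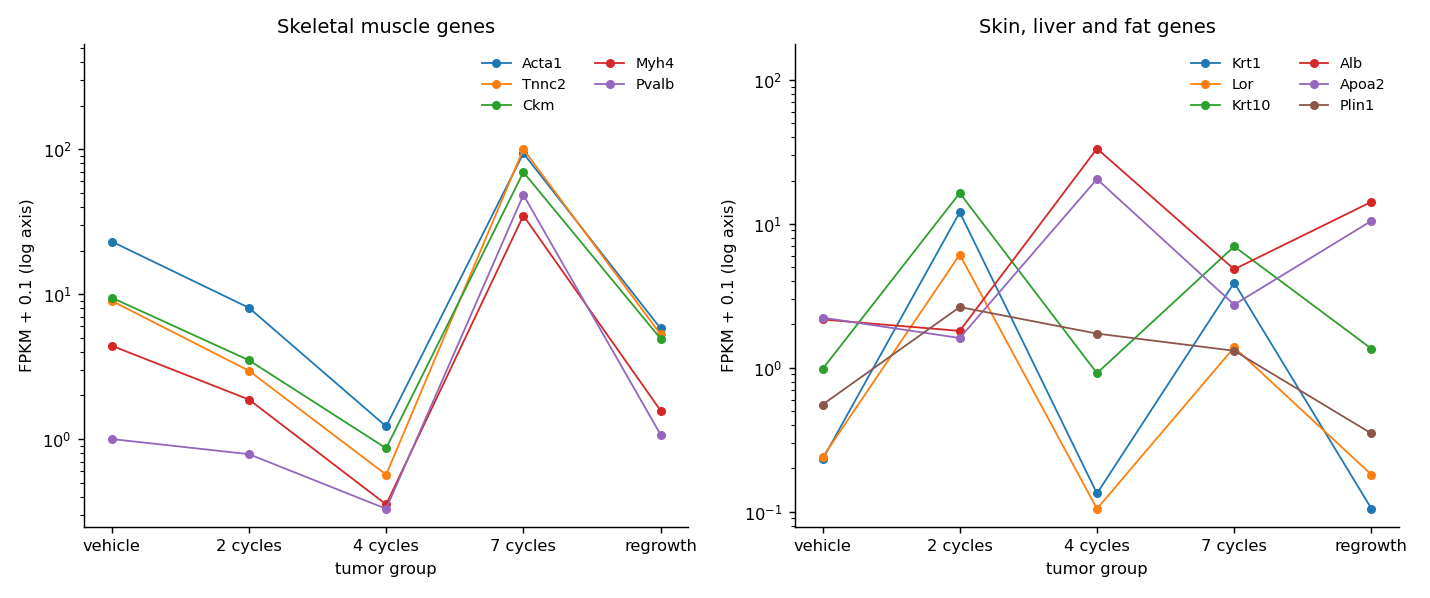
FPKM + 0.1 on a log axis in the 5 tumor groups, for 5 skeletal muscle genes (left) and 6 genes of cornified epithelium (Krt1, Lor, Krt10), liver (Alb, Apoa2) and fat (Plin1) (right); each point is 1 group value and lines join the values of a gene. Muscle genes are highest after 7 cycles (Acta1 93.6 FPKM), cornified genes after 2 cycles (Krt1 11.9 FPKM) and Alb and Apoa2 after 4 cycles (Alb 33.2 FPKM).

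Genes known from skin, fat and liver were also examined. Of 14 genes of cornified epithelium 6 reached 1 FPKM and 5 were called lower. Krt1, a keratin of the upper skin layers, had 0.130 FPKM in vehicle tumors, 11.9 after 2 cycles, 0.0336 after 4, 3.80 after 7 and 0.00489 in regrowth, and Krt10 had 0.879, 16.3, 0.816, 6.87 and 1.25 FPKM. Krt5, which basal tumor cells and skin share, was higher (6.99 and 10.8 FPKM). Adipocyte genes had 2 calls of 11, both lower, Cidec (5.38 and 2.52 FPKM) and Plin1 (2.54 and 1.21 FPKM), coat proteins of fat droplets, while Fabp4 (61.1 and 66.2 FPKM) was level. Among 8 liver plasma proteins 2 were called higher and 1 lower, with Alb, albumin, at 2.06, 1.70, 33.2, 4.73 and 14.1 FPKM and thus highest after 4 cycles. How far these tissues bear on the epithelial and basal genes was not tested.

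Milk genes moved apart. Csn3, kappa casein, had 0.247 FPKM in vehicle tumors, 1.04 after 2 cycles, 3.97 after 4, 9.66 after 7 and 4.28 in regrowth, a log2 difference of 3.09. Glycam1, a mucin of mammary gland and lymph node vessels, had 7.66 FPKM in vehicle, 4.89 after 2 cycles, was listed at 0 after 4, and had 0.0371 after 7 and 15.5 in regrowth. Glycam1 had the largest downward difference of any list member (log2 difference -5.19).

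The called genes had unlike courses in the groups that were not used to call them. Of the 305 genes called higher, 163 (53.4%) were within 2-fold of vehicle after 2 cycles and above it after 7, 43 (14.1%) passed from below vehicle to above it, and 38 (12.5%) were above vehicle at both. Of the 389 called lower, 179 (46.0%) passed from within 2-fold of vehicle to below it, 114 (29.3%) were within 2-fold at both, and 78 (20.1%) were above vehicle after 2 cycles and back within 2-fold after 7. Col1a1 was of the first of these kinds and Gzmb of the last.

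The 4 cycle level lay between those after 2 and 7 cycles in 351 of 389 genes called lower (90.2%) and 214 of 305 called higher (70.2%), against 65.6% of all genes tested. A call sets a wide gap between the 2 levels, which itself raises these shares. The regrowth level was nearer to that after 7 than after 2 cycles in 78.4% of the genes called lower and 39.7% of those called higher, against 68.6% of all. Regrowth shares its age label and its number of pools with the 7 cycle group. Of the genes called lower, 256 (65.8%) had their highest level of the 5 groups after 2 cycles, against 24.4% of all genes, a share that the call itself raises.

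The most abundant genes called higher beside Lcn2, Cldn4 and Epcam were Mgp, a matrix inhibitor of calcification (80.3 and 168 FPKM), and Tmem176a, a membrane protein (57.0 and 131 FPKM). The most abundant called lower beside the collagens, Bgn and the granzymes were the chemokines Ccl8 (149.9 and 72.2 FPKM), which draws monocytes, and Cxcl14 (81.6 and 30.0 FPKM). Mir711, a microRNA precursor, also ranked among them (133 and 60.8 FPKM). Such rows lie within or beside other genes, and 47 of 274 that reached 1 FPKM were called lower and 16 higher, so their reads may belong to neighboring transcripts. Grem1, a secreted inhibitor of BMP signals, was among the largest decreases (6.25 and 0.732 FPKM), as was Il2rb, a chain of the receptor for interleukin 2 and 15 on NK and T cells (5.39 and 1.18 FPKM).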

How the data were processed

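Polyadenylated RNA from 13 pools of 4T1 tumor RNA was sequenced by the authors from strand-specific libraries. TopHat2, featureCounts, edgeR and mm9 appear in the submitters' processing notes; versions: not given in the sources used here, nor how pools were joined. Deposited values are FPKM, 1 for each group of pools, made by the authors; depth per library was not used, so the precision of low values is unknown. The 15 columns not used here hold the authors' own comparisons of each group with vehicle (ratios, fold changes, p-values) or repeat the vehicle values. Of 24197 lines, 27 with a date in place of a symbol were left out, and 22846 of 24170 symbols matched RefSeq. Groups came from the labels.

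A count test, planned in case library counts were given, could not be run on group values. Genes were called by size, at least 2-fold with 0.1 FPKM added and at least 1 FPKM in the higher group. No fold is printed for a symbol listed at 0, because Hmgcs1, a sterol enzyme every cell uses, was listed at 0 in all 5 groups. Such symbols were not left out of the calls: Mir1195, listed at 0 after 7 cycles, is counted among the genes called lower. Each list was described by counts and its median. The genes named were drawn from the 5 most different called members and 3 most abundant others of each list, exceptions to a list's direction, the 12 largest differences each way above 5 FPKM, the 8 most abundant called each way and the study's PCR genes; some further members were named after their values were seen. The members and lists were chosen with earlier results of these data known. Transcript lengths are the longest per symbol in GENCODE vM21, for 11360 of 11809 genes (96.2%). Promoters came from RefSeq GRCm38.p6, with an entry for 28 of the 40 interferon-stimulated genes and 14 of the 20 interferon gamma genes. Ido1 was among those without one. Python 3.11.15, pandas 2.3.3, numpy 2.4.6 and Biopython 1.88 were used, and the calling was tested on simulated data. Alternatives were another pseudocount, equal sums, centring and other limits, and, chosen after seeing the data, length bins and leaving out genes lower after 4 than after 2 cycles.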

Additional observations from a re-analysis of the deposited data

How the results depend on the processing

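No paired analysis was possible because each group has 1 pooled value, and for the same reason no pool could be left out. The counts of 305 genes higher and 389 lower became 169 and 144 with 1 FPKM added in place of 0.1, and 320 and 434 with 0.01. They were 607 and 719 with no FPKM minimum, over 19653 genes, and 112 and 137 with a minimum of 5 FPKM, over 7214. At 1.5-fold they were 873 and 1298, at 3-fold 160 and 82. With equal FPKM sums they were 256 and 714, centred on the median 332 and 338. Among genes of like length, an alternative chosen after seeing the data, they were 292 and 336. Without genes at least 2-fold lower after 4 than after 2 cycles, also chosen after seeing the data, 285 were higher, and without all genes lower after 4 cycles 219. The 219 still held muscle genes such as Myl2. Of 44 list medians, 8 took either sign under another scaling: the repair list among genes of like length (0.047 in place of -0.16), and 7 that lay within 0.1 of 0, those of the interferon-stimulated, both MHC, p53, drug handling, heat shock and immediate early lists. Of 147 named genes none reversed under the alternatives run; 44 lost the 2-fold limit with 1 FPKM added, 8 with equal sums, 6 with centring and 16 among genes of like length. A low FPKM rests on few reads: 168 of the 305 genes called higher were below 1 FPKM after 2 cycles and 167 of the 389 called lower were below it after 7.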

Other observations

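Genes outside the lists, chosen after their values were seen, are given as single values. Saa1, a serum amyloid protein of the acute phase, had 0.680 FPKM in vehicle tumors, 1.02 after 2 cycles, 4.56 after 4, 12.5 after 7 and 1.32 in regrowth, and Saa2 had 0.665, 1.33, 5.53, 9.21 and 1.43 FPKM. Lbp, which binds bacterial lipopolysaccharide, went from 5.97 to 23.7 FPKM between 2 and 7 cycles. The 3 genes were above vehicle and stepped up from 2 to 4 to 7 cycles, then were low in regrowth. Wnt6, a secreted Wnt ligand, had a like course (0.241, 1.20, 4.25, 8.46 and 1.71 FPKM), while Wnt5a went the other way (1.91 FPKM after 2 cycles, 0.615 after 7).

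The keratin genes Krt6b (3.44 FPKM after 2 cycles, 0.307 after 7) and Krt16 (5.70 and 1.53 FPKM) were lower, although Krt17, often induced with them in stressed skin, was higher. Of 13 keratin genes that reached 1 FPKM and whose symbols end in a digit, 3 were called higher and 3 lower. Krt6b and other symbols that end in a letter are not in that count. Coagulation factors F7 (5.09 and 1.26 FPKM) and F10 (6.35 and 2.56 FPKM) were lower, and so were cytokine receptor chains of white cells, Il2rg (15.0 and 7.37 FPKM), Csf2ra (20.9 and 9.95 FPKM) and Csf2rb (16.1 and 7.80 FPKM). Csf1, the growth factor of macrophages, went from 28.9 to 14.3 FPKM. Each of these lower genes was highest after 2 cycles among the 5 groups.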
